A study of Drosophila melanogaster with 24 samples.

Results

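The cytosolic ribosomal protein genes were taken from RNA-seq of whole male Drosophila melanogaster of the white-eyed laboratory line w1118. Members were the genes whose name begins with RpL or RpS followed by a number or by P, which leaves out the mitochondrial ribosomal proteins (mRp names). The rule found 92 members among 12506 genes listed in the data, 54 of the large and 38 of the small ribosomal subunit. The flies were older (20 to 27 d) or younger (0 to 7 d), and were kept on food for 4 hr or on water for 2 hr. In each of these 4 conditions (older food, older water, younger food and younger water), 3 libraries came from flies struck with the HIT device, a spring-driven model of traumatic brain injury, and 3 from uninjured flies, 24 libraries in all. The study describes the libraries of a group as independent biological replicates.

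The values used were the authors' mean levels, 1 per gene and condition over its 6 libraries, injured and uninjured together, in log2 CPM (counts per 1000000). The effect of injury on these genes is therefore not analysed here. Each difference of age or diet below also includes injured flies, so it cannot be told apart from a response to injury that differed between conditions. A mean of this kind carries no spread between libraries, so no difference below could be tested, and no error can be given for it. Food and water also differed in time (4 hr and 2 hr), and diet and time cannot be told apart. The levels of each condition come from a table of its own, and whether the tables were scaled together is not given in the sources used here. Because these are whole flies, fewer cells of a type and less RNA per cell cannot be told apart.

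Ribosomal proteins coat the ribosomal RNAs and build the small subunit, which decodes mRNA, and the large subunit, which joins amino acids. Each ribosome needs 1 copy of nearly every protein, and most of the genes are transcribed strongly in all growing cells and in proportion to each other. In Drosophila, loss of 1 copy of many of these genes gives the Minute phenotype of slow development and thin bristles. A few of the proteins are encoded by more than 1 gene, and several of the additional genes are known for use in the germ line. Grouped by gene name, the members held 13 duplicate sets with 27 genes, and the other 65 members stood alone. The grouping by name also took in RpL24-like, RpLP0-like and RpL7-like, which resemble yeast ribosome assembly factors and may not be second genes for the same protein. Below, the 14 less abundant genes of the sets are called second copies. The remaining 78 members (47 large and 31 small subunit), which include the partner gene of each set, are called core members.

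Members are by definition genes listed in some condition, so a ribosomal protein gene listed in none could not appear here. The 78 core members and 13 second copies were listed in all 4 conditions. RpS28a, a second copy of RpS28b of the small subunit, was listed in younger food at 0.99 log2 CPM and in younger water at 1.46 log2 CPM. It was not listed in older food or older water.

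Core members were abundant and close to each other in level. Per kb of transcript, their median level was 10.32 log2 CPM in older food and 10.54 log2 CPM in older water. It was 9.46 log2 CPM per kb in younger food and 9.92 log2 CPM per kb in younger water. The SD over the 78 genes was between 0.41 and 0.44 on this log2 scale in every condition. The median level per kb over all genes with a known transcript length was 3.74 in older food, 3.64 in older water, 3.75 in younger food and 3.76 in younger water, on the same scale. Core members thus stood more than 5 log2 units above the middle gene in each condition, and their spread was narrow beside the SD of 2.07 to 2.24 over all genes. They are, however, what was left after the less abundant copies were set aside, which by itself narrows the spread. Over all listed members the SD was 2.16 in older food, 2.30 in older water, 1.80 in younger food and 1.88 in younger water.

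**Figure D1:**
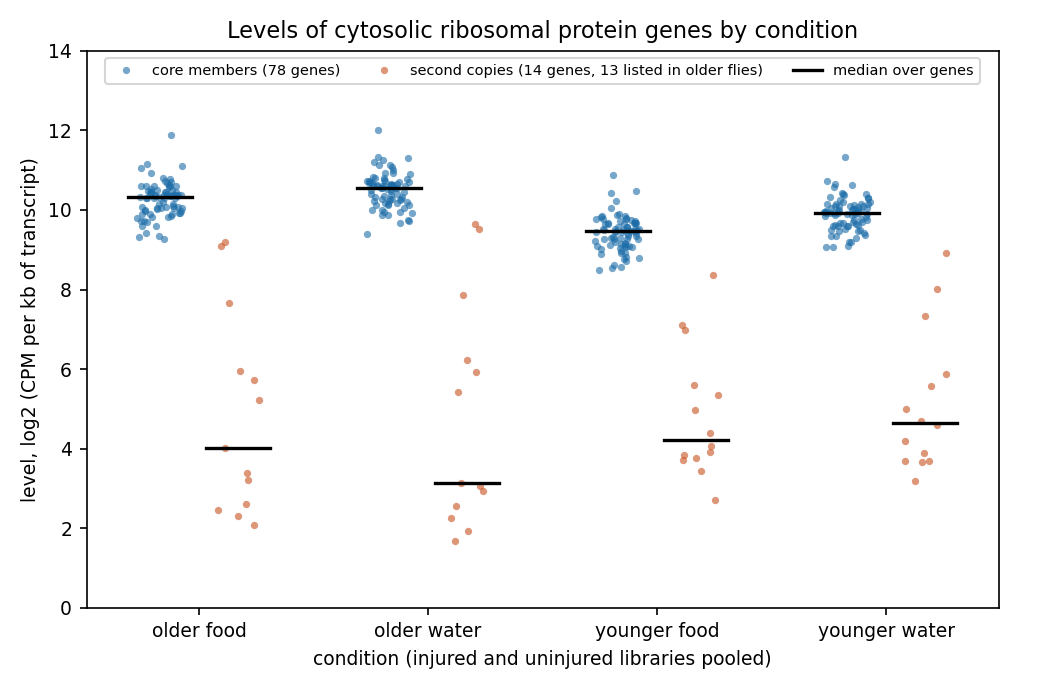
Level of each member in log2 CPM per kb of transcript (y axis) in the 4 conditions (x axis), with 1 point per gene and a bar at the median over genes. Core members lie in a narrow band around medians of 10.32, 10.54, 9.46 and 9.92 in older food, older water, younger food and younger water, and most second copies lie far below it.

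The highest member per kb was RpL41, a very short basic peptide of the large subunit. In log2 CPM per kb, its level was 11.88 in older food, 12.01 in older water, 10.88 in younger food and 11.33 in younger water. RpL39, another very short large-subunit protein, came next with a mean over conditions of 10.93 log2 CPM per kb. RpS3A averaged 10.84, RpL10, a protein near the site where amino acids are joined, averaged 10.78, and RpL27A averaged 10.67 log2 CPM per kb. The exons of RpL39 overlap those of RpL12 on the other strand, and the library kit does not mark strand. Reads from the shared stretch could therefore not be assigned to 1 of the genes, and the length of that stretch was not measured. The core members with the lowest means were RpL22 (9.08) and RpL35A (9.13). Across the 78 core members, levels per kb in pairs of conditions had a correlation of r = 0.92 to 0.98. The points of such a correlation share each gene's length and sequence, and it describes only how far the order of genes was kept.

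The members together took a different share of the total in each condition. Their summed CPM was 76580 in older food, 90133 in older water, 42578 in younger food and 59197 in younger water. That was 7.64% of the summed CPM in older food, 8.99% in older water, 4.25% in younger food and 5.90% in younger water. Second copies gave only 0.105%, 0.136%, 0.0548% and 0.0782% of the total in the same order. All 78 core members had the same order of levels, with older water highest, then older food, then younger water, and younger food lowest. These levels were not centred, and the share of all genes with this order is not given here. Since each condition is 1 pooled value, it is not known which neighbours in this order differ beyond the spread between libraries.

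**Figure D2:**
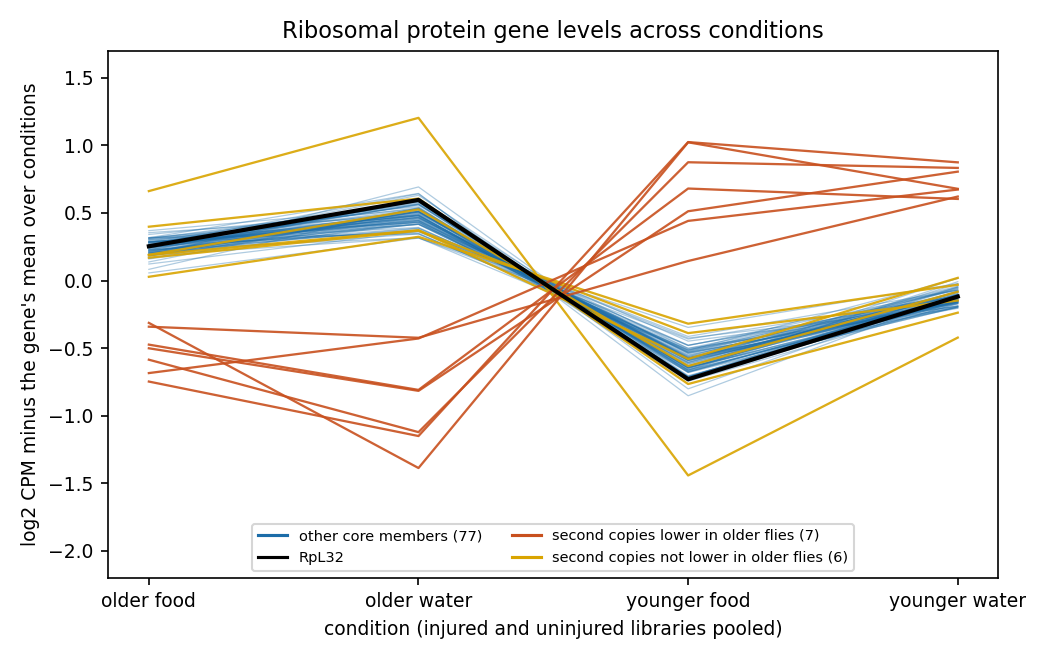
Log2 CPM of each member minus that gene's mean over the 4 conditions (y axis), with 1 line per gene across conditions (x axis). The core members run in a narrow bundle that is highest in older water and lowest in younger food, 7 second copies are lower in older than in younger flies, and RpL32 (black) runs inside the bundle.

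Age was compared within each diet. Differences are older minus younger, in log2 units, and were centred on the median difference of all genes listed in both conditions, so that 0 is the middle gene. The middle gene itself differed by 0.16 on food and 0.09 on water before centring. On food, all 78 core members were higher in older flies, with a median centred difference of 0.69 (quartiles 0.62 and 0.77). Without centring the median was 0.85, a 1.80-fold difference. A centred difference over 1.5-fold higher was seen for 65 of the 78 core members, against 12.2% of 11806 genes. No core member was over 1.5-fold lower, against 26.9% of the same genes.

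On water, all 78 core members were again higher in older flies, with a median centred difference of 0.53 (quartiles 0.45 and 0.60). Without centring the median was 0.62, a 1.53-fold difference. Of the 78, 23 were over 1.5-fold higher, against 10.4% of 11531 genes, and none was over 1.5-fold lower, against 24.6%. All 23 also passed this size on food, beside 825 of 11457 genes over all that passed it on both diets. The counts over 1.5-fold depended on which genes set the centre. When only genes of at least 5 log2 CPM were used, 41 core members passed on food and 2 on water, and when the mean replaced the median, 76 passed on water. The shares of all genes past this size under these other centres are not given here. All 78 core members stayed on the positive side in both diets under each centring tried.

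**Figure D3:**
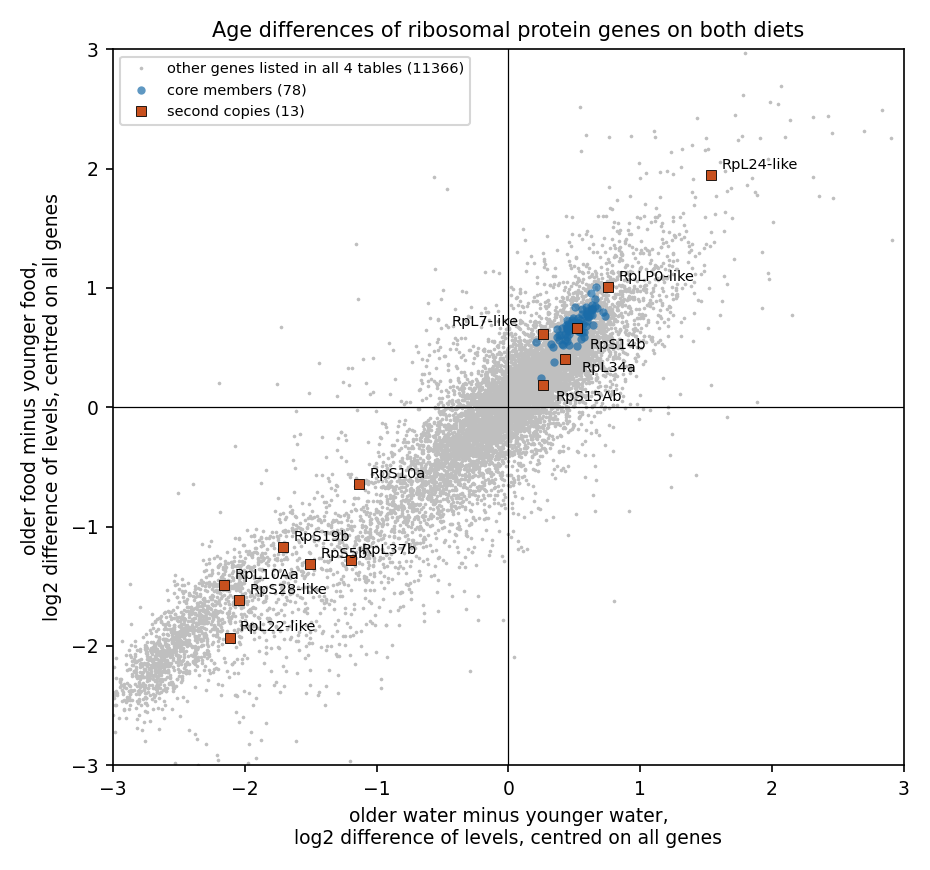
Centred log2 difference of older minus younger flies on water (x axis) and on food (y axis), with 1 point per gene for core members (circles), second copies (squares) and the other genes listed in all 4 conditions (grey), of which a few lie outside the axes. Core members form a tight group above 0 on both axes, with medians of 0.53 on water and 0.69 on food, while 7 second copies lie at or below -0.64 on food and -1.13 on water.

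Both subunits showed the same sizes. On food the median centred difference was 0.69 for the 47 large-subunit and 0.69 for the 31 small-subunit core members, and on water it was 0.53 for each subunit. The spread among core members was small, with an SD of 0.12 on food and 0.10 on water, against 0.96 and 1.01 over all genes. With the second copies included, the SD over all 91 members listed at both ages was 0.59 on food and 0.62 on water. The extremes named next were chosen after their values were seen. RpLP2, a protein of the acidic stalk that recruits elongation factors, had the largest age difference of the core members on food, at 1.01. RpS2 followed at 0.96 and RpL27A at 0.91. On water the largest were RpL38 at 0.74, RpS29 at 0.72 and RpL35 at 0.67. RpL15 of the large subunit differed least on food, at 0.25, and was also at 0.25 on water. RpS27A, which is made as a fusion to ubiquitin, was at 0.38 on food and 0.34 on water. RpL22 was the smallest on water, at 0.21. On the same strand, exons of RpS27A overlap those of the protein-coding gene Ip259. Exons of RpL15 and RpL22 overlap noncoding RNA genes on the same strand, and those of RpS29 overlap one on the other strand. How reads of these stretches were assigned is not known.

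Age differences on food and on water were related across genes. Across the 78 core members the centred differences on the 2 diets had r = 0.77 (Spearman rho = 0.78), and across all 11457 genes listed in every condition r was 0.93 (rho = 0.89). Sizes still differed in single genes, as in RpL22, at 0.55 on food and 0.21 on water. The compared conditions share no library, but the points share each gene's sequence and mappability. Against transcript length, the age difference of core members had r = -0.01 on food and -0.29 on water across the same genes.

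Other abundant short genes did not stand where the core members stood. Non-members with a transcript between 0.288 and 1.512 kb, the range of the core members, and a level of at least 7.61 log2 CPM in both conditions, the lowest core level, served for this. Their median centred age difference was -0.04 on food (181 genes) and 0.02 on water (209 genes), against 0.69 and 0.53 for core members. The quartiles of these genes were wide, from -0.89 to 0.47 on food and from -0.69 to 0.40 on water.

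Markers of other tissues also differed with age. Of 14 markers chosen for testis and male germ line, 12 were listed in all 4 conditions. All 12 were over 1.5-fold lower in older flies on both diets, beside 2528 of 11457 genes over all. The medians of these markers were -1.95 on food and -1.93 on water. Their summed level, with the other marker listed only in younger flies, was 697 CPM in older food, 461 CPM in older water, 1985 CPM in younger food and 1808 CPM in younger water. The testis tubulin betaTub85D was at 7.31 log2 CPM in older food, 6.49 in older water, 9.11 in younger food and 9.10 in younger water, and bam, which marks early germ cells, was not listed. The 6 markers of the male accessory gland summed to 1792 CPM in older food, 1647 CPM in older water, 5400 CPM in younger food and 4264 CPM in younger water. These gland genes had median age differences of -1.78 on food and -1.43 on water. On each diet 5 of the 6 were over 1.5-fold lower, against 26.9% of all genes on food and 24.6% on water. Markers of ovary and yolk summed to 17.1 CPM in older food, 34.5 CPM in older water, 154 CPM in younger food and 13.6 CPM in younger water, with 5 of 10 listed in any condition. In younger food the yolk genes Yp1, Yp2 and Yp3 were at 5.83, 5.63 and 5.43 log2 CPM. Yp2 was listed in no other condition, and Yp3 was at 3.65 log2 CPM in younger water. Younger food enters the age comparison on food and the diet comparison in younger flies, and the source of this yolk signal was not tested. The part of these shifts in the age difference of the ribosomal protein genes was not tested.

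Second copies did not follow the core members as a group. On food, 4 of the 13 listed second copies were over 1.5-fold higher in older flies (12.2% of all genes) and 7 were over 1.5-fold lower (26.9% of all genes). The 4 higher were RpS14b and the copies that resemble assembly factors, RpL24-like, RpLP0-like and RpL7-like. On water, 2 of 13 were over 1.5-fold higher (10.4% of all genes) and 7 lower (24.6% of all genes). The 7 lower on food were the 7 lower on water, beside 2528 of 11457 genes over all that were lower on both diets. They were RpL10Aa, RpL22-like, RpL37b, RpS5b, RpS10a, RpS19b and RpS28-like. All except RpS28-like, for which no role is given here, are known as gene copies used mainly in the germ line. They are low in these whole flies, at most 5 log2 CPM in each condition, and genes of low level are measured from few reads.

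RpL22-like, a second copy of RpL22 of the large subunit, was at 2.37 log2 CPM in older food and 1.97 in older water, and at 4.15 in younger food and 4.00 in younger water. Its centred age difference was -1.93 on food, the farthest from the core median of any member, and -2.11 on water. RpL10Aa, a copy of RpL10Ab, was at 3.66 log2 CPM in older food and 2.59 in older water, and at 5.0 in younger food and 4.66 in younger water. Its centred differences of -1.49 on food and -2.15 on water made it the farthest member on water. Both genes were lower in older flies on each diet, opposite in direction to their partner genes.

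RpS28-like was at 1.01 log2 CPM in older food and 0.47 in older water, and at 2.47 in younger food and 2.43 in younger water. Its centred differences were -1.62 on food and -2.04 on water. RpS19b, a copy of RpS19a, was at 2.78 log2 CPM in older food and 2.47 in older water, and at 3.80 in younger food and 4.09 in younger water. Differences of RpS19b were -1.17 on food and -1.71 on water. Exons of RpS28-like overlap those of CG3769 on the same strand, so its reads are uncertain.

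RpS5b, a copy of RpS5a, was at 2.47 log2 CPM in older food and 2.14 in older water, and at 3.63 in younger food and 3.55 in younger water, with centred differences of -1.31 and -1.5. RpL37b, a copy of RpL37a (a gene apart from RpL37A), was at 1.07 log2 CPM in older food and 1.33 in older water, and at 2.20 in younger food and 2.43 in younger water. The differences of RpL37b were -1.28 on food and -1.19 on water. RpS10a, a copy of RpS10b, had the smallest differences of the 7 lower copies, -0.64 on food and -1.13 on water. It was at 2.49 log2 CPM in older food and 2.41 in older water, and at 2.98 in younger food and 3.45 in younger water. The median centred difference of the testis and male germ line markers given above, -1.95 on food and -1.93 on water, lies in the same direction, and whether these copies followed the same cells was not tested.

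The other 6 second copies listed at both ages were higher in older flies on both diets, as the core members were. RpL24-like had the largest positive difference of any member, 1.95 on food and 1.54 on water. It resembles the yeast ribosome assembly factor Rlp24 more than a ribosomal protein. It was at 8.72 log2 CPM in older food and 9.27 in older water, and at 6.62 in younger food and 7.64 in younger water. Its exons overlap those of Dtd on the other strand, and Dtd was at 4.19 log2 CPM in older food and 4.70 in older water, and at 1.59 in younger food and 2.18 in younger water. Dtd had centred age differences of 2.44 on food and 2.43 on water, and reads of the overlap could not be assigned to a strand.

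RpLP0-like, similar to the yeast assembly factor Mrt4, was at 5.15 log2 CPM in older food and 5.35 in older water, and at 3.98 in younger food and 4.51 in younger water. Its centred differences were 1.01 on food and 0.76 on water. It overlaps Jra, the fly Jun gene, on the other strand, and Jra had centred differences of 0.86 on food and 1.06 on water. RpL7-like, similar to the yeast assembly factor Rlp7, was at 5.67 log2 CPM in older food and 5.86 in older water, and at 4.90 in younger food and 5.50 in younger water. Its centred differences were 0.61 on food and 0.26 on water, and its exons overlap those of CG34164 on the same strand.

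RpS14b, RpL34a and RpS15Ab differed by amounts near or inside the range of the core members. RpS14b was at 8.40 log2 CPM in older food and 8.74 in older water, and at 7.58 in younger food and 8.13 in younger water, with centred differences of 0.67 and 0.52. RpL34a was at 6.94 log2 CPM in older food and 7.14 in older water, and at 6.38 in younger food and 6.62 in younger water, with differences of 0.40 and 0.43. RpS15Ab was at 5.48 log2 CPM in older food and 5.77 in older water, and at 5.13 in younger food and 5.42 in younger water. Its differences were 0.19 on food, below the smallest core value of 0.25, and 0.27 on water.

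Diet was compared within each age, as food minus water on the same centred scale. In younger flies all 78 core members were lower on food, with a median centred difference of -0.52 (quartiles -0.59 and -0.45). Without centring the level on food was 0.714 times that on water, and the middle gene differed by only 0.04. Of the 78, 20 were over 1.5-fold lower, against 4.27% of 12100 genes, and 0 were over 1.5-fold higher, against 4.69%. The SD among core members was 0.11, and the differences ran from -0.78 for RpLP2 to -0.27 for RpS3A. Large-subunit members had a median of -0.53 and small-subunit members one of -0.51.

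In older flies all 78 core members were again lower on food, with a median centred difference of -0.38 (quartiles -0.45 and -0.32). The middle gene was higher on food by 0.14 log2 units, and without centring the core median was -0.24, or 0.848 times the level on water. Only RpL38 (-0.66) and RpS25 (-0.60) were over 1.5-fold lower, against 5.13% of 11589 genes, and no core member was over 1.5-fold higher, against 10.2%. This share of 2 in 78 is below the background, and both genes fell under the size without centring. RpS5a, at -0.17, was nearest to 0. The differences in younger and older flies had r = 0.69 across the 78 core members, and the compared conditions share no library.

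Short abundant genes that are not members were also lower on food. With the limits of length and level given above, their median centred difference was -0.16 in younger flies (237 genes) and -0.34 in older flies (230 genes). The core median of -0.52 in younger flies was farther from 0 than that of these genes, and the core median of -0.38 in older flies was close to theirs.

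**Figure D4:**
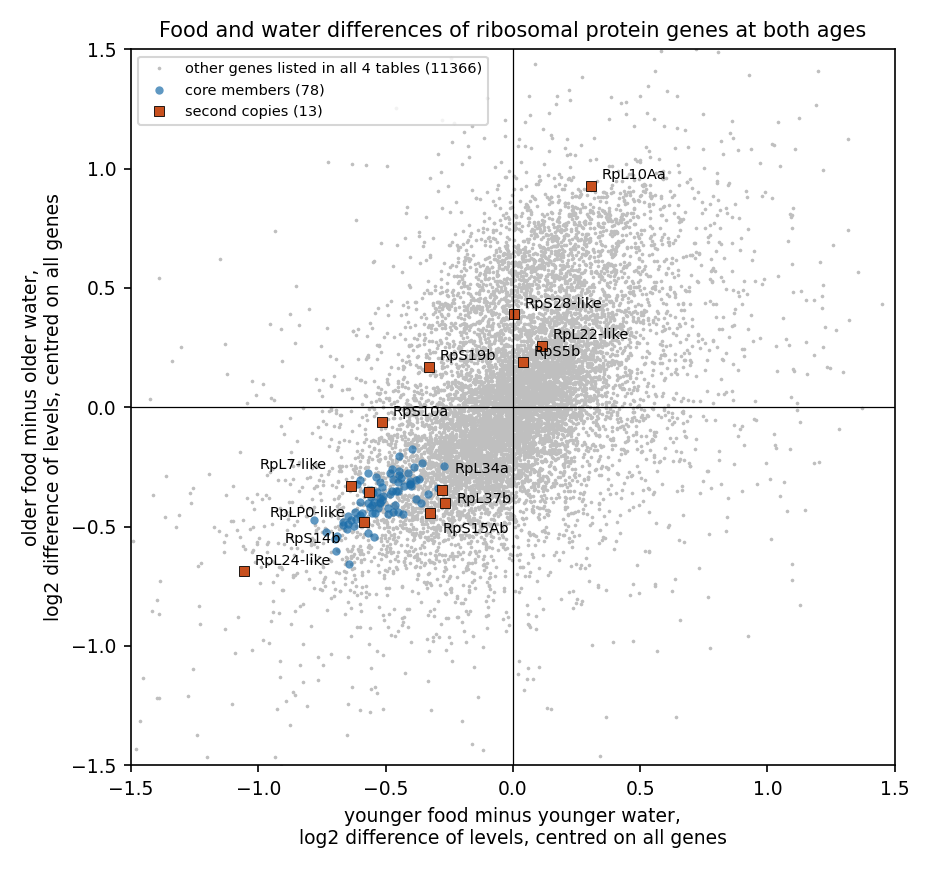
Centred log2 difference of food minus water in younger flies (x axis) and older flies (y axis), with 1 point per gene for core members (circles), second copies (squares) and the other genes listed in all 4 conditions (grey), of which a few lie outside the axes. Core members lie below 0 on both axes, around -0.52 and -0.38, and RpL10Aa lies apart at 0.31 and 0.93.

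Second copies had mixed signs between diets. In younger flies 3 of 14 were over 1.5-fold lower on food (4.27% of all genes) and 0 were higher (4.69%). In older flies 1 of 13 was lower (5.13% of all genes) and 1 was higher (10.2%), near the background in each direction. The copy lower at both ages was RpL24-like, at -1.06 in younger and -0.69 in older flies. In younger flies RpL7-like (-0.64) and RpS14b (-0.59) were the others over this size. RpL10Aa was the copy higher on food in older flies, at 0.93, and was at 0.31 in younger flies. For RpL22-like the difference was 0.11 in younger and 0.26 in older flies, for RpS5b 0.04 and 0.19, and for RpS28-like 0.01 and 0.39. These 4 copies, all lower in older flies, were the ones with values above 0 at both ages. RpS19b was at -0.33 in younger and 0.17 in older flies. The testis and male germ line markers had medians of 0.18 in younger flies (13 genes) and 0.41 in older flies (12 genes), and their part in these values was not tested.

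Within a set, the second copy was by definition the less abundant gene, so its place below its partner is not a result. Each of the 14 lay below its partner per kb of transcript in each condition in which it was listed. The distance was smallest for RpS14b, which lay 1.44-fold below RpS14a in older food, 1.38-fold in older water, 1.59-fold in younger food and 1.49-fold in younger water. RpS14a and RpS14b are neighbours in the genome and encode the same protein, so how the authors' counting split their reads is uncertain. RpL24-like lay 1.73-fold below RpL24 in older food and 1.51-fold in older water, but 4.22-fold in younger food and 3.22-fold in younger water. RpL34a lay 3.20-fold below RpL34b in older food, 3.67-fold in older water, 2.71-fold in younger food and 3.60-fold in younger water.

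Distances of the remaining copies were larger. RpS15Ab, RpL7-like and RpLP0-like lay between 16.5-fold and 33.7-fold below their partners. The 7 copies lower in older flies lay farther below their partners in older than in younger flies on both diets. This follows from the age differences given above, because their partners were higher in older flies, and is no separate result. RpL22-like lay 146-fold below RpL22 in older food and 212-fold in older water, and at 26.3-fold in younger food and 42.2-fold in younger water. RpS28-like lay 184-fold below RpS28b in older food and 351-fold in older water, and at 37.1-fold in younger food and 54.4-fold in younger water. RpS5b lay 180-fold below RpS5a in older food and 232-fold in older water, and at 45.7-fold in younger food and 61.9-fold in younger water. RpS28a lay 86.3-fold below RpS28b in younger food and 88.5-fold in younger water. These distances divide counts by the median length of annotated transcripts, and other lengths moved them without bringing any copy level with its partner.

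**Figure D5:**
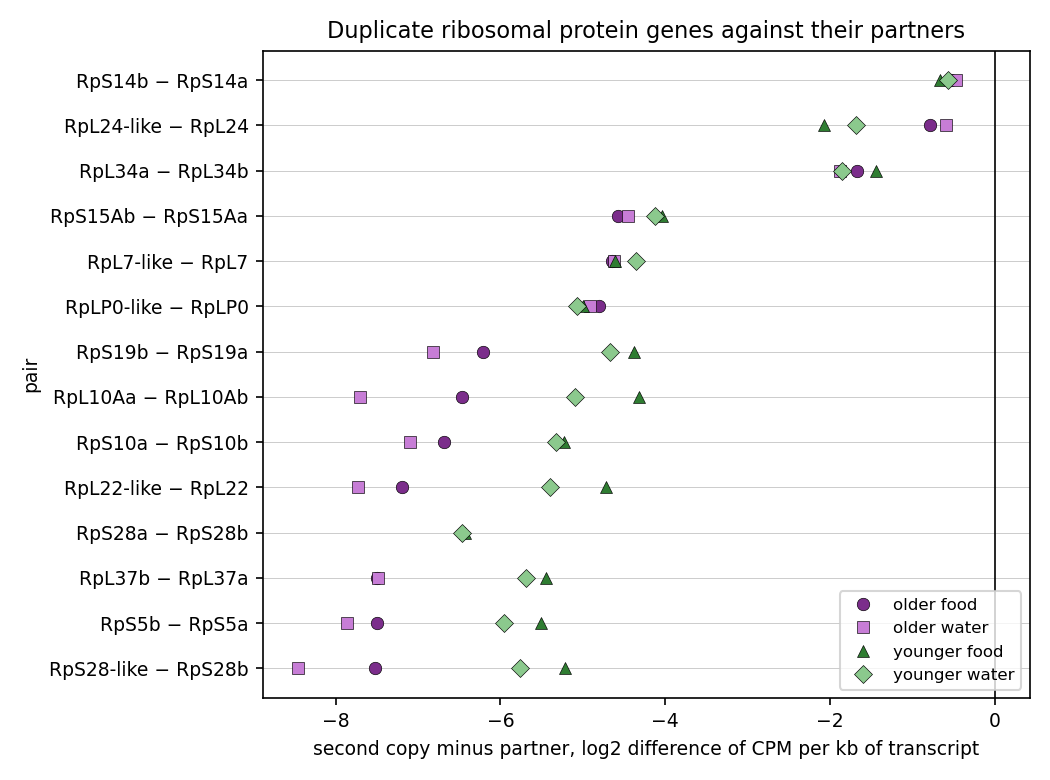
Log2 level per kb of transcript of each second copy minus that of its partner (x axis) for the 14 pairs (y axis), with 1 symbol per condition. All symbols lie left of 0, because the less abundant gene of a set was called the second copy. RpL10Aa, RpL22-like, RpL37b, RpS5b, RpS10a, RpS19b and RpS28-like lie farther left in older than in younger flies. This follows from their age differences and those of their partners.

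RpL32, a large-subunit core member, is used as a reference gene for RT-qPCR in flies, including in the study. Its level was 9.71 log2 CPM in older food, 10.05 in older water, 8.72 in younger food and 9.33 in younger water. As CPM these values are 835, 1059, 422 and 645 in the same order. Without centring it was 1.98-fold higher in older than in younger flies on food and 1.64-fold higher on water. On food it stood at 0.654 times its level on water in younger flies and at 0.788 times in older flies. Centred, its age differences of 0.83 on food and 0.63 on water lay above 94.0% and 91.2% of all genes. Its diet differences of -0.65 in younger and -0.49 in older flies lay above only 3.21% and 8.04% of all genes. RpL32 thus stood near the core members, 0.14 above their median for age on food and 0.10 above on water. The study's RT-qPCR time course in younger flies on food used males and females together, whereas these libraries are of males. CPM is a share of all counts, and what these differences mean for RT-qPCR values was not tested.

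Among other genes of translation, the ribosomal protein genes named otherwise and the translation factors mostly had the same signs. The gene sta, which encodes the small-subunit protein RpSA, had centred differences of 1.04 for age on food, 0.66 for age on water, -0.78 for diet in younger and -0.44 for diet in older flies. Rack1, a scaffold protein of the small subunit, had 0.49, 0.30, -0.30 and -0.15 in the same order. The 7 elongation factors had medians of 0.45 for age on food and 0.41 for age on water. Each time 1 of 7 was over 1.5-fold higher, against 12.2% and 10.4% of all genes. For Ef1alpha48D, which delivers tRNAs, the age differences were 0.64 on food and 0.41 on water. The 26 initiation factors had medians of 0.33 and 0.23, and 3 of 26 were over 1.5-fold higher on each diet, a share near that of all genes. Among these was eIF-2beta at 0.85 and 0.73. Elongation factors had diet medians of -0.29 in younger and -0.25 in older flies, and initiation factors had -0.26 and -0.23. The 73 mitochondrial ribosomal protein genes had medians of 0.29 for age on food, 0.33 for age on water, -0.23 for diet in younger and -0.30 for diet in older flies. In each of the 4 comparisons the core median was farther from 0 than the medians of these lists, and the difference between lists was not tested.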

How the data were processed

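Whole male flies were profiled by RNA-seq (Illumina TruSeq RNA kit, single reads) in 24 libraries. The authors trimmed reads with Skewer, aligned them with STAR and estimated expected counts per gene with RSEM before testing injury in edgeR. The submitters' processing notes name CASAVA, STAR 2.4.2a, RSEM 1.2.22, edgeR 3.10.5 and the build dm3. Each of the 4 deposited tables holds, per gene, a mean level on the log2 scale (log2 CPM over the condition's 6 libraries, normalization not given in the sources used here). The tables also hold the authors' own comparison of injured with uninjured flies (log fold change, likelihood ratio, p-value and FDR), which was not used. The depth per library is unknown, 0 columns of values per library were used, and the planned count test could not be run. The table of older water had 292 empty rows, which were left out.

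CPM was taken as 2 to the power of the level. Differences between conditions were centred on the median over all genes listed in both tables, and a size of 1.5-fold was used for counts. Median transcript lengths came from an Ensembl annotation of another build, and 90 members matched by current symbol and 2 by synonym. Exons of 32 members overlapped another gene in it. Annotation positions served only for lengths, overlaps and neighbours, and no coordinates or sequences are given. Python 3.11.15, numpy 2.4.6, pandas 2.3.3 and matplotlib 3.10.9 were used.

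Genes named in the text were all genes of duplicate sets, RpL32, the 5 highest and 5 lowest members per kb, the 5 members farthest from the members' median in each comparison and members not listed everywhere. Core members with extreme differences were named after their values were seen. The members, gene lists and markers were chosen with earlier results of these data known.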

Additional observations from a re-analysis of the deposited data

How the results depend on the processing

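A median was taken as moved when it differed by 0.1 log2 units or more, and a count when it differed by more than 1.5 times. All 78 core members kept the direction of each of the 4 comparisons under each centring and filter tried. Each of the 14 second copies stayed below its partner under each length tried. The choice of the less abundant gene as second copy largely set this in advance. Using the longest transcript, the median core level per kb was 10.10 in older food, 10.35 in older water, 9.20 in younger food and 9.74 in younger water. The core median for age on food was 0.85 without centring and 0.95 with mean centring. For age on water it was 0.83 with mean centring and 0.40 with genes of at least 5 log2 CPM. For diet in older flies it was -0.24 without centring and -0.27 with genes of at least 5 log2 CPM. For the counts that follow, the share of all genes past the size at the same setting is not given here. Core members over the size for age on food numbered 41 with genes of at least 5 log2 CPM and 1 at 2-fold. For age on water they numbered 45 without centring, 76 with mean centring, 15 with genes of at least 1 log2 CPM, 2 with genes of at least 5, 0 at 2-fold and 76 at the lowest size tried. Lower on food in younger flies were 13 without centring, 0 at 2-fold and 76 at the lowest size tried. Lower on food in older flies were 0 without centring, 0 with genes of at least 5 log2 CPM, 0 at 2-fold and 58 at the lowest size tried. The other 61 recomputed values of these kinds did not move. Of the recomputed counts of second copies and distances of single pairs, 41 moved and 43 did not. For example, the second copies higher with age on food numbered 2 at 2-fold and 1 with genes of at least 5 log2 CPM, and RpL24-like minus RpL24, a mean of -1.29 log2 units per kb, was -0.72 with the longest transcript. The counts of second copies lower with age were 0 with genes of at least 5 log2 CPM because that filter leaves those copies out. The other changes came with the changed centre, filter, size or transcript length, and were not examined further. No paired analysis was possible because no values per library were used, and for the same reason no library could be left out in turn. Depth per library is unknown, so no limit on the precision of a single level can be given.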
